A study of Mus musculus with 6 samples.

Results

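Fibroblast growth factor (Fgf) ligands are secreted signals that pass between the epithelium and the mesenchyme of growing organs. The 9 genes described here are those named as Fgf ligands of tooth and limb: Fgf3, Fgf4, Fgf7, Fgf8, Fgf9, Fgf10, Fgf17, Fgf18 and Fgf20, out of 21887 protein-coding genes on the mouse chromosomes 1 to 19, X and Y. Their sites were taken from 4 lists of chromatin immunoprecipitation (ChIP-seq) peaks, and a peak was assigned to a gene when its summit lay inside the gene or within 50 kb of either end.

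The lists came from E13.5 embryos of the wild-type CD1 strain of mouse, with 1 library for each tissue and antibody: molar tooth germ with an antibody to phosphorylated Smad1/5, limb with the same antibody, molar tooth germ with an antibody to Smad4, and limb with that antibody. All 4 groups share the wild-type genotype, the strain and the stage, and no source used here gives the number of embryos behind a library. An input of each tissue also belongs to the series, and its signal was not used here. The lists hold 35476 molar and 23389 limb pSmad1/5 peaks, and 34561 molar and 29756 limb Smad4 peaks. Because no list has a replicate, a difference between tissues or antibodies carries no replicate check, and no p-value was computed. Peak lists hold no expression values, so the tissue labels could not be set against marker genes, and epithelium and mesenchyme cannot be told apart in them.

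In canonical bone morphogenetic protein (BMP) signalling, activated receptors phosphorylate Smad1 and Smad5, which bind Smad4 and enter the nucleus to act on target genes. BMP and Fgf signals are known to interact throughout tooth and limb development. Fgf8 is an early signal of the oral epithelium that forms teeth, and it also comes from the apical ectodermal ridge, the epithelial rim that keeps the limb bud growing. Fgf4, Fgf9 and Fgf17 are ridge signals too, and Fgf4, Fgf9 and Fgf20 are made in the enamel knot, the signalling centre of the tooth epithelium. Fgf3, Fgf7 and Fgf10 are known as mesenchymal signals to epithelium, and Fgf18 acts in cartilage and bone growth.

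Each peak carries the authors' enrichment score, used here to describe and filter peaks and to count all lists at a common minimum score. Whether the scores of different lists are on one scale is not known. The lowest score listed differed between chromosomes, and this touches the Fgf genes directly. Rounded down, it was 3 in both limb lists on the 7 chromosomes that hold these genes. Molar pSmad1/5 peaks were listed from 2 on chromosome 13 (Fgf10) and on chromosome 14 (Fgf9 and Fgf17), and from 3 on the other 5. Molar Smad4 peaks were listed from 4 on chromosomes 2 (Fgf7), 8 (Fgf20), 11 (Fgf18) and 19 (Fgf8), and from 3 on chromosomes 7 (Fgf3 and Fgf4), 13 and 14. The share of this difference in the counts below was not tested, and the lists were also counted at a common score.

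Most of the Fgf ligand genes had peaks in each list, about as often as genes in general. For pSmad1/5, a peak lay within 50 kb of 8 of 9 genes in molar, where 74.9% of all protein-coding genes had one, and of 7 of 9 in limb, where 68.0% did. For Smad4 there were 7 of 9 in molar, against 68.0% of all genes, and 7 of 9 in limb, against 71.2%. The median gene of the 9 had 5 molar and 2 limb pSmad1/5 peaks, against 2 and 1 over all protein-coding genes. It had 1 molar and 3 limb Smad4 peaks, against 1 and 2 over all genes. The molar pSmad1/5 values included peaks scoring under 3 at Fgf9, Fgf10 and Fgf17. With a score of at least 3, these 3 genes had none, 5 of 9 genes kept a molar pSmad1/5 peak, against 64.9% of all genes, and the median was 1 for the 9 genes and 1 over all genes. The genes differed widely among themselves: Fgf17 had 19 peaks over the 4 lists, Fgf18 18, Fgf8 15, Fgf3, Fgf4 and Fgf9 13 each, Fgf7 3, and Fgf10 and Fgf20 2 each.

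**Figure D1:**
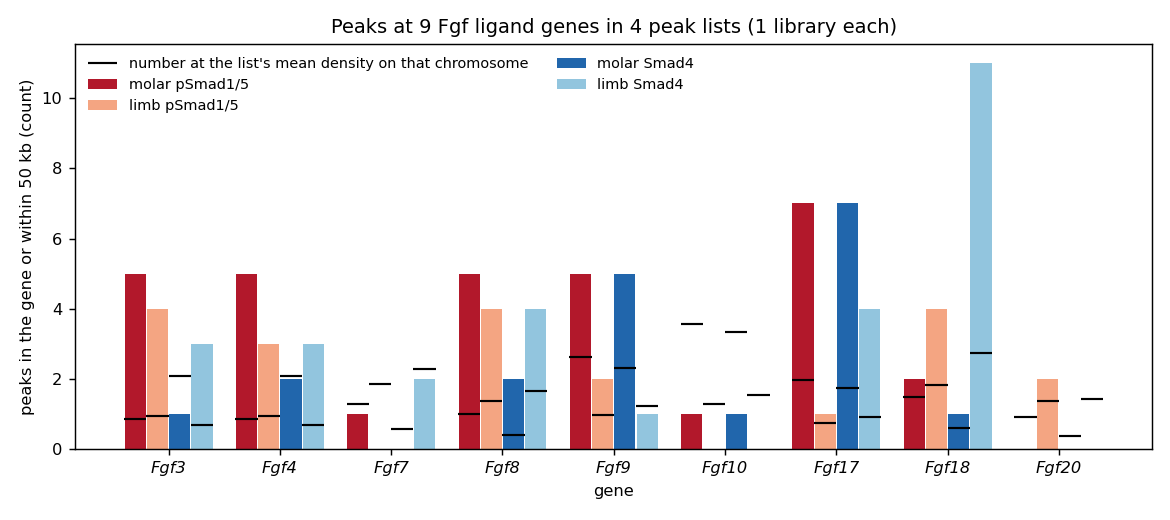
Number of peaks (y axis) in each gene or within 50 kb of its ends for the 9 Fgf ligand genes (x axis), as 1 bar per list, with black ticks at the number that the list's mean density on that chromosome would give. Fgf18 stands out with 11 limb Smad4 peaks and Fgf17 with 7 molar peaks for each antibody, whereas Fgf7, Fgf10 and Fgf20 have 0 to 2 per list.

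The windows of the 9 genes together held 87 distinct peaks, of which 11 were counted for both Fgf3 and Fgf4. Merged into 8 windows of 1054 kb in total, they held 27 molar and 17 limb pSmad1/5 peaks. The mean peak density of the same chromosomes in the same list would give 13.8 and 10.5. The ratio was 1.96 in molar (95% exact Poisson interval 1.29 to 2.85) and 1.62 in limb (0.943 to 2.59). For Smad4 the windows held 18 molar and 25 limb peaks, at ratios of 1.53 (0.904 to 2.41) and 1.99 (1.29 to 2.94). These intervals cover counting error only. Neighbouring peaks need not be independent, and the ratio compares the windows with whole chromosomes, not with windows of other genes, so it is a description. Of the 87 peaks, 55 had one of the 9 genes as the nearest protein-coding gene by distance to an end, 23 lay inside one of the 9, and 10 lay within 1 kb of one of their ends. Another protein-coding gene contained the summit of 29, and 36 lay inside none.

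Peaks close to the ends of the genes were few. Within 1 kb of an end, a molar pSmad1/5 peak lay at Fgf4, Fgf8 and Fgf17 (3 of 9, against 20.7% of all protein-coding genes), and a limb pSmad1/5 peak at Fgf8 and Fgf20 (2 of 9, against 15.5%). No molar Smad4 peak did so (0 of 9, against 7.76%), and a limb Smad4 peak did at Fgf3, Fgf17 and Fgf18 (3 of 9, against 21.8%). Fgf8 was thus the gene with such a pSmad1/5 peak in molar and in limb alike.

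The promoters shown here are those of the genes with a summit within 1 kb of the annotated start, among the 6 of the 9 genes found in the RefSeq promoter table (GRCm38.p6). For Fgf9 the table's start lies inside the gene's span. Each is the 250 bases before the start, 5′ to 3′ on the strand of the gene, and capitals mark the motifs searched on both strands. These were the Smad-binding element GTCTG, read as CAGAC on the other strand, the GC-rich element GGCGCC, its relative GGAGCC, read as GGCTCC on the other strand, and the palindrome GTCTAGAC. None of these motifs contains another. The Fgf4 promoter is chr7:144861136-144861385 (plus strand), that of Fgf18 is chr11:33147401-33147650 (minus strand), that of Fgf3 is chr7:144838362-144838611 (plus strand), and that of Fgf9 is chr14:58072436-58072685 (plus strand).
Fgf4: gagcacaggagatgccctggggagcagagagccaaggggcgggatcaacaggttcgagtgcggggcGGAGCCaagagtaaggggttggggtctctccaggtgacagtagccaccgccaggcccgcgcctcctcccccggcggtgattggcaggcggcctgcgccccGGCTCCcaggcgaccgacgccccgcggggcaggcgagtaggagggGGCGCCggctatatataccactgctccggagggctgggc
Fgf18: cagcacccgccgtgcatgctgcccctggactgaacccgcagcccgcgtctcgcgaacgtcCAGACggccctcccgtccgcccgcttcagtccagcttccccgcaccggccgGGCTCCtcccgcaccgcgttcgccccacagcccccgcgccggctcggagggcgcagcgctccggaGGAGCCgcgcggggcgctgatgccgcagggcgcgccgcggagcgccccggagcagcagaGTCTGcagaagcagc
Fgf3: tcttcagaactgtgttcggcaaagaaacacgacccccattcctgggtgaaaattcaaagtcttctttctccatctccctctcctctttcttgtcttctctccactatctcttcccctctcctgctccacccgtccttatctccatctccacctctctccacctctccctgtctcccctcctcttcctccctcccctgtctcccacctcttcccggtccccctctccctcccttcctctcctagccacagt
Fgf9: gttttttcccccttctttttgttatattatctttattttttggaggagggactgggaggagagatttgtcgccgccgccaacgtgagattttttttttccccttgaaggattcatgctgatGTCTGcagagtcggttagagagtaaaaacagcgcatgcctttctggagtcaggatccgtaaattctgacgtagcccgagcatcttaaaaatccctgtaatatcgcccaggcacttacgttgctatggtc

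The Fgf4 promoter held 1 GGCGCC, 39 bases before the start, and 2 matches of GGAGCC or GGCTCC, 184 and 84 bases before it. The Fgf18 promoter held 2 matches of GGAGCC or GGCTCC, and 2 of GTCTG or CAGAC, these last at 190 and 15 bases before the start. Fgf9 had 1 GTCTG, 129 bases before the start, and the Fgf3 window none of the motifs. Over the same 250 bases of all 32851 promoters in the table, 42.2% held GTCTG or CAGAC, 26.0% GGAGCC or GGCTCC, 9.59% GGCGCC and 0.167% GTCTAGAC. A match describes these letters and is not evidence of binding.

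Fgf8 had pSmad1/5 peaks of both tissues at the same end of the gene. The gene spans chr19:45736491-45742941. In molar, 3 of its 5 pSmad1/5 peaks lay inside the gene, with summits 167, 443 and 1922 bp from the upper end and scores of 3.71, 3.34 and 3.25. In limb, 2 of its 4 pSmad1/5 peaks lay there, 115 and 75 bp from that end, with scores of 3.17 and 3.18.

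The molar peak nearest to the end, chr19:45742733-45742850, overlapped both limb peaks, chr19:45742820-45742826 by 7 bp and chr19:45742847-45742883 by 4 bp. Its summit was 52 and 92 bp from theirs. Its deposited p-value of 1.16e-10, from the authors' peak call, was the lowest of the 87 peaks, and its score ranked 180 of the 563 molar pSmad1/5 peaks on chromosome 19. Both limb peaks stood low in their list, with scores ranking 640 and 628 of the 782 limb pSmad1/5 peaks on that chromosome. No Smad4 peak of either tissue lay within 10 kb of Fgf8: the nearest was 19374 bp away in molar (score 4.50) and 10171 bp away in limb (score 3.41).

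The other 10 peaks around Fgf8 lay partly inside neighbouring genes and partly inside none. A molar pSmad1/5 peak 24100 bp below the gene lay inside no gene, had a score of 5.06 and ranked 20 of 563 on the chromosome. Among the limb pSmad1/5 peaks, the summit 6183 bp from Fgf8 lay 441 bp from an end of Npm3 (score 4.04), and the summit at 49730 bp lay 325 bp from an end of Kcnip2. Smad4 had 2 molar and 4 limb peaks in the window, and with a score of at least 4 there were 2 and 2.

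**Figure D2:**
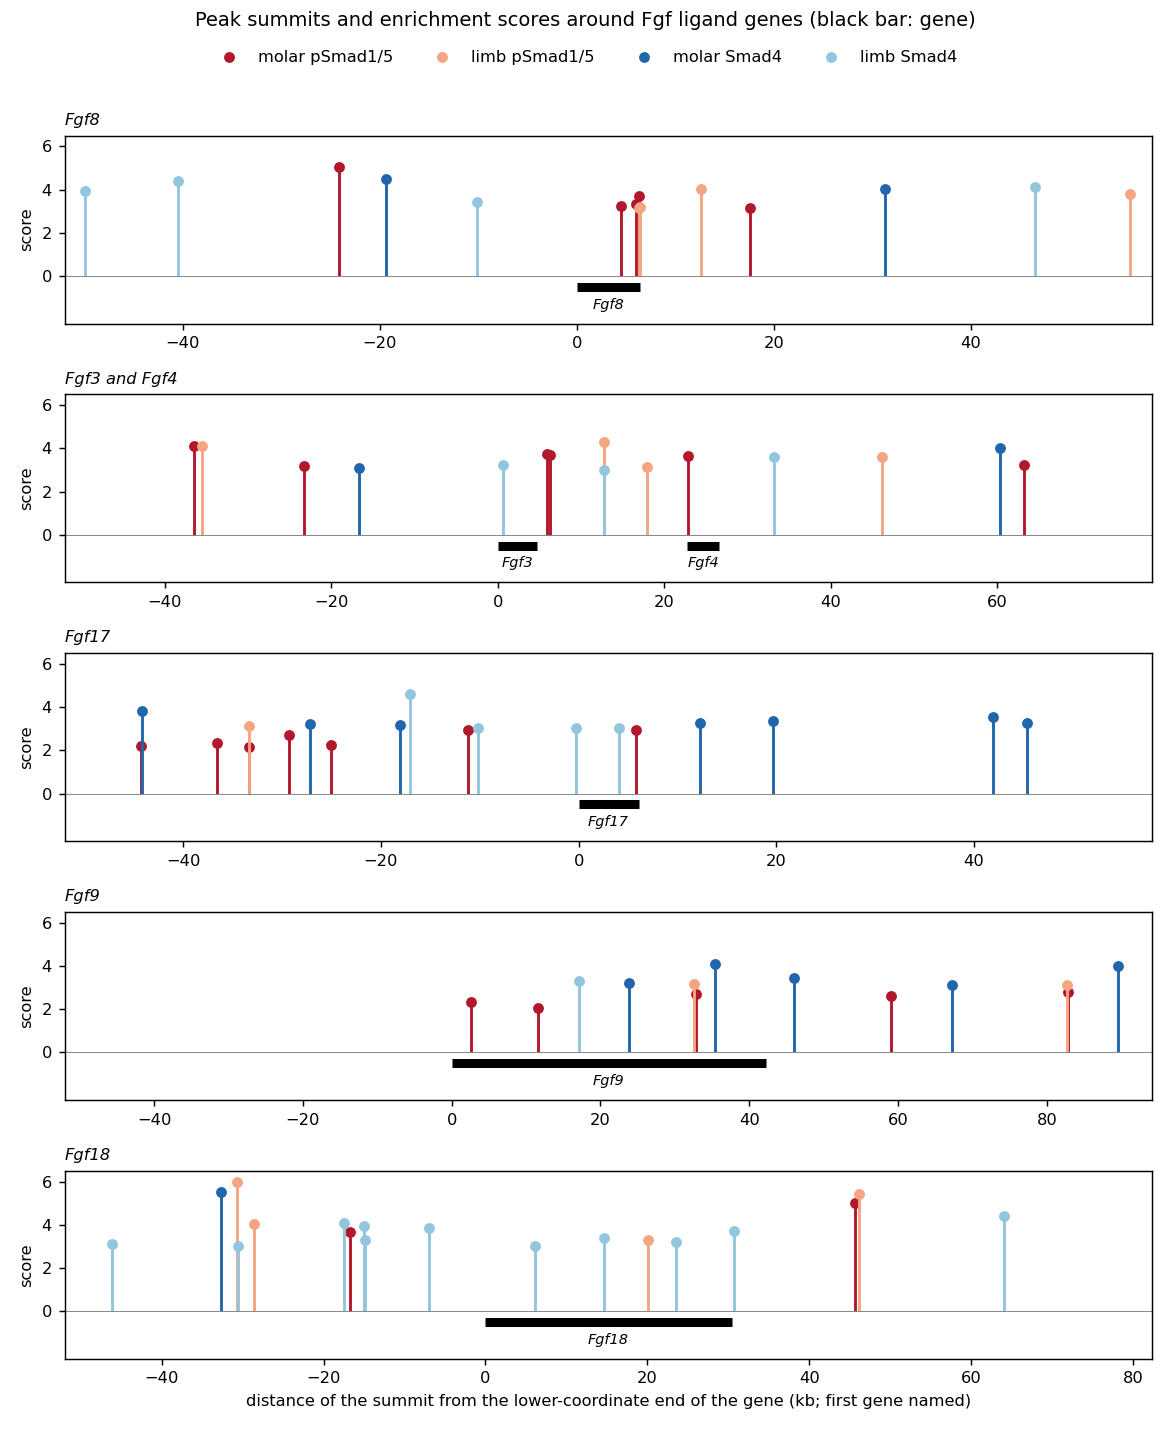
Summits of the peaks around 6 of the Fgf ligand genes: distance from the lower-coordinate end of the gene in kb (x axis) against the authors' enrichment score (y axis), coloured by list, with black bars for the genes. At Fgf8, 3 molar and 2 limb pSmad1/5 peaks lie inside the gene towards its upper end, and at Fgf18 the limb Smad4 peaks spread over the whole window.

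Fgf3 and Fgf4 lie 18038 bp apart on chromosome 7 (chr7:144838612-144843348 and chr7:144861386-144865245), so their windows share most peaks and the genes are not separate observations. Together they had 6 molar and 4 limb pSmad1/5 peaks, and 2 molar and 3 limb Smad4 peaks. Fgf4 had a molar pSmad1/5 peak at its start, with the summit 87 bp after it and a score of 3.63. Of that peak, chr7:144861407-144861512, the promoter table holds the following 29 bases after the start:
Fgf4 molar pSmad1/5 peak, chr7:144861407-144861435, plus strand: cgttgcgtccctatttgctctcgctactt

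The nearest limb pSmad1/5 summit to Fgf4 was 4792 bp before its start, with a score of 3.14. Downstream of Fgf3, 2 molar pSmad1/5 peaks lay 1202 and 1568 bp from its end, with scores of 3.72 and 3.70. Fgf3 itself contained a limb Smad4 peak, 598 bp after the start (score 3.22), and no peak of the other lists. A limb pSmad1/5 peak (score 4.28) and a limb Smad4 peak (score 3.001) lay between the genes, 8053 and 8081 bp from Fgf3, with summits 28 bp apart and 8 bp between them. Before Fgf3, at 36505 and 35474 bp, lay molar and limb pSmad1/5 peaks of scores 4.11 and 4.13, with summits 1031 bp apart. The molar Smad4 list, although it holds 2887 peaks on chromosome 7 against 936 in limb, had none within 10 kb of either gene.

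Fgf18 had the most peaks of a single list, 11 for limb Smad4, against 1 for molar Smad4. Only 6.44% of protein-coding genes had as many limb Smad4 peaks, and the list's density on chromosome 11 would give 2.75. The gene spans chr11:33116970-33147400 on the minus strand. Among the 11, 10 had Fgf18 as their nearest gene, 3 lay inside it, and 1 lay 255 bp before its start (chr11:33147607-33147667, score 3.71). This last peak covers the opening 44 bases of the Fgf18 promoter printed above.

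The limb Smad4 scores at Fgf18 ran from 3.04 to 4.41, and 2 of the 11 reached 4. The molar Smad4 peak scored 5.53, ranking 13 of 555 on the chromosome, and lay 32715 bp past the gene. The molar list starts at 4 on this chromosome, so with a score of at least 4 the counts were 1 in molar and 2 in limb. The other 9 limb peaks scored under 4, where the molar list has no entries on this chromosome.

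For pSmad1/5, Fgf18 had 2 molar and 4 limb peaks, none within 1 kb of the gene's ends. The limb peak 30724 bp past the gene had the highest score of the 87, 5.98, and ranked 12 of 1703 on the chromosome. Its deposited p-value from the authors' peak call was 5.35e-04, where the highest in that list is 9.97e-04. A limb Smad4 peak of score 3.04 lay next to this limb pSmad1/5 peak, with summits 85 bp apart and 49 bp between the peaks. Before the start, a molar peak of score 5.02 and a limb peak of score 5.42 lay 15269 and 15748 bp from Fgf18. Both lay inside the neighbouring gene Npm1, 1473 and 994 bp from an end of it, and did not overlap, with 434 bp between them.

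Fgf9 and Fgf17, both on chromosome 14, had more molar than limb peaks for each antibody. Fgf9 (chr14:58070671-58112854) had 5 molar and 2 limb pSmad1/5 peaks, and 5 molar and 1 limb Smad4 peaks. Fgf17 (chr14:70636203-70642268) had 7 molar and 1 limb pSmad1/5 peaks, and 7 molar and 4 limb Smad4 peaks. The molar lists are denser than the limb lists on this chromosome, at 18.4 against 6.88 peaks per Mb for pSmad1/5 and 16.3 against 8.54 for Smad4. Relative to that density, Fgf9 had 1.91 times the mean in molar and 2.04 times in limb for pSmad1/5, and 2.16 and 0.824 times for Smad4. Fgf17 had 3.59 and 1.37 times for pSmad1/5, and 4.06 and 4.42 times for Smad4.

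All molar pSmad1/5 peaks at these genes scored under 3, from 2.04 to 2.78 at Fgf9 and from 2.14 to 2.95 at Fgf17, below the lowest score of the limb list on this chromosome. With a score of at least 3 in every list, neither gene had a molar pSmad1/5 peak, and the limb counts remained 2 and 1. No other protein-coding gene overlaps the Fgf9 window, and all 13 peaks there were nearest to Fgf9. A molar pSmad1/5 peak lay 523 bp after its annotated start, with a score of 2.34. The highest Fgf9 score, 4.09, was that of a molar Smad4 peak inside the gene, 6850 bp from its end.

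Around Fgf17, by contrast, 2 of 19 peaks had Fgf17 as their nearest gene, and the others were nearer to Dmtn, Npm2, Fam160b2 or Xpo7. A molar pSmad1/5 peak lay inside Fgf17, 293 bp from its upper end, with a score of 2.95. A limb Smad4 peak (score 3.06) lay 277 bp outside the lower end, and it was 122 bp from an end of Dmtn and inside that gene. The highest score of the window, 4.63, was that of a limb Smad4 peak inside Dmtn, 17109 bp from Fgf17.

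Sites of both tissues, defined as peaks of the same antibody that overlap by at least 1 bp, lay within 50 kb of 3 of the 9 genes for pSmad1/5, against 4.82% of all protein-coding genes. These were Fgf8, described above, Fgf9 and Fgf17. At Fgf9 the summits lay 40602 bp (molar) and 40582 bp (limb) past the gene, 20 bp apart, and the peaks shared 18 bp. At Fgf17 the summits lay 33390 and 33344 bp away, 46 bp apart, and the peaks shared 12 bp. The Fgf17 site was inside Dmtn, 629 bp (molar) and 675 bp (limb) from an end of that gene.

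The molar peaks of these sites scored 3.71 at Fgf8, 2.78 at Fgf9 and 2.14 at Fgf17. With a score of at least 3 in all lists, the Fgf8 site was the one left. It was also the one left when the overlap had to cover 50% of the shorter peak, through the limb peak of 7 bp. The other limb peak at Fgf8 shared 4 of its 37 bp, against 18 of 49 bp at Fgf9 and 12 of 42 bp at Fgf17. The share of all protein-coding genes under these rules is not given here. With equal numbers of top-scoring peaks per chromosome the Fgf9 site was left and the Fgf8 site was not, and with a score of at least 4 there was none. For Smad4, no site of both tissues lay near any of the 9 genes (0 of 9, against 1.54%).

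Nor did a pSmad1/5 peak overlap a Smad4 peak of the same tissue near any of the 9 genes, in molar (0 of 9, against 1.94%) or in limb (0 of 9, against 12.7%). Close neighbours existed without overlap. When summits within 250 bp counted as shared, Fgf17 had such a site in molar. Its summits were 104 bp apart, with 10 bp between the peaks. By the same rule, Fgf3, Fgf4 and Fgf18 had one in limb, as described above. For Fgf3 and Fgf4 it is the same pair of peaks, whose Smad4 peak is 7 bp long with a score of 3.001. The share of all protein-coding genes under this rule is not given here, so these counts have no background.

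**Figure D3:**
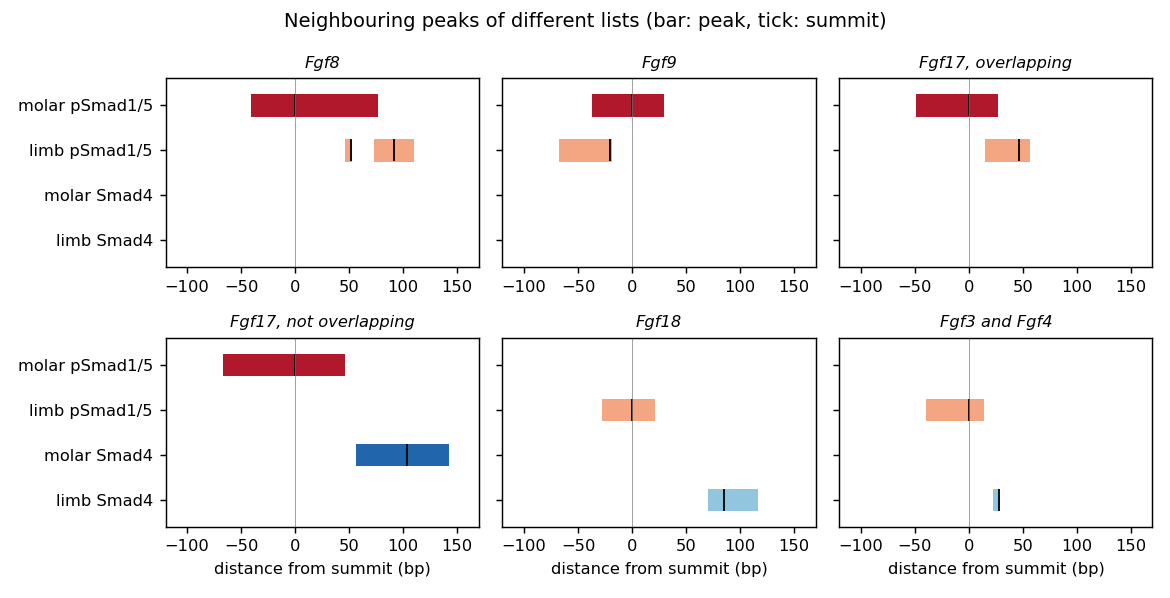
Peaks of different lists with summits within 250 bp at the Fgf ligand genes: each bar spans a peak along the distance from the summit of the pSmad1/5 peak in bp (x axis), ticks mark summits, and rows are the 4 lists. Bars of molar and limb pSmad1/5 overlap at Fgf8, Fgf9 and Fgf17, by 4 to 18 bp, while the pSmad1/5 and Smad4 bars of the other 3 panels are 8 to 49 bp apart.

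Fgf7, Fgf10 and Fgf20 had few peaks. Fgf10 (chr13:118714699-118792573), the mesenchymal signal needed for limb outgrowth, had 1 molar peak for each antibody and 0 limb peaks for either. Its molar pSmad1/5 peak lay inside the gene, 17508 bp after the start, with a score of 2.05, and its molar Smad4 peak lay 49116 bp before the start, with a score of 3.19. With a score of at least 3 in every list, Fgf10 had 0 molar and 0 limb pSmad1/5 peaks. Its window of 177.9 kb is the longest of the 9, and the molar lists' density would give 3.56 pSmad1/5 and 3.33 Smad4 peaks there. The limb lists' density would give 1.27 pSmad1/5 and 1.53 Smad4 peaks.

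Fgf7 (chr2:126034658-126091185), the keratinocyte growth factor, lies inside the span of Fam227b. It had 1 molar and 0 limb pSmad1/5 peaks, the molar one 13145 bp past the gene with a score of 3.28. For Smad4 it had 0 molar and 2 limb peaks, one of them inside the gene, with scores of 3.07 and 3.16, below the score of 4 at which the molar list starts on this chromosome.

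Fgf20 (chr8:40279166-40286953) had 0 molar and 2 limb pSmad1/5 peaks, and no Smad4 peak in either tissue. Its limb peak inside the gene, 307 bp from the upper end, had a score of 3.99, and the other, at 21741 bp, lay 1256 bp from an end of Micu3 with a score of 3.27. On chromosome 8 the molar pSmad1/5 list starts at a score of 3 and the molar Smad4 list at 4. Their density there would give 0.908 and 0.367 peaks in the Fgf20 window, and that of the limb Smad4 list 1.43. Whether limb and molar scores are on one scale is not known, and the cause of the missing molar peaks was not tested.

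The median score of the Fgf peaks was 3.17 in molar and 3.59 in limb for pSmad1/5, against 3.0 and 3.44 over the whole lists. For Smad4 it was 3.42 in molar and 3.30 in limb, against 3.38 and 3.53. Scores of at least 4 made up 11.1% of the molar and 35.3% of the limb pSmad1/5 peaks, against 9.96% and 20.4% of the whole lists. They made up 27.8% of the molar and 20% of the limb Smad4 peaks, against 20.9% and 25.6%. These medians and shares were not matched by chromosome. The molar Smad4 list starts at 4 on chromosomes 2, 8, 11 and 19, and the molar pSmad1/5 list at 2 on chromosomes 13 and 14. The molar values therefore depend on which chromosomes hold the genes. With a score of at least 4, a peak remained near 3 of 9 genes for molar pSmad1/5 (27.8% of all genes) and 4 of 9 for limb pSmad1/5 (34.3%). The same score left 4 of 9 for molar Smad4 (39.0%) and 3 of 9 for limb Smad4 (43.4%). Fgf8 and Fgf18 kept a peak in all 4 lists at that score. On their chromosomes, 19 and 11, the molar Smad4 list starts at 4, so any molar Smad4 peak there passes.

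**Figure D4:**
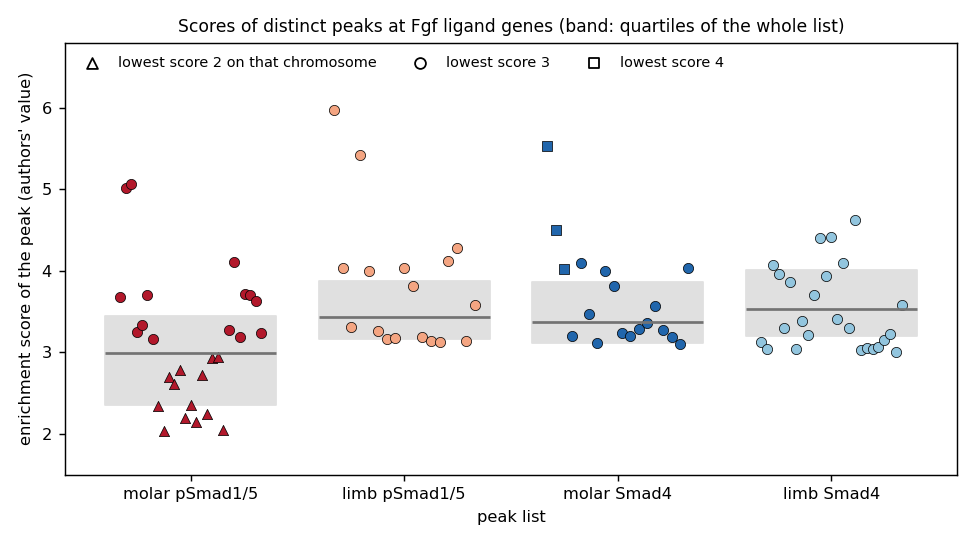
Authors' enrichment score (y axis) of each distinct peak at the 9 Fgf ligand genes by list (x axis), over grey bands and lines for the quartiles and median of the whole list; marker shape gives the lowest score listed on the peak's chromosome. The molar pSmad1/5 peaks below 3 are all triangles, from chromosomes 13 and 14, and 5 peaks lie above 5, at Fgf8 and Fgf18.

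The rest of the Fgf pathway was read from 3 lists: 13 other Fgf genes, 7 receptors and co-receptors, and 13 feedback and target genes. For pSmad1/5, a peak within 50 kb lay at 12 (molar) and 11 (limb) of the 13 other Fgf genes, at 7 and 7 of the 7 receptor genes, and at 11 and 11 of the 13 feedback genes, against 74.9% (molar) and 68.0% (limb) of all protein-coding genes. For Smad4 the counts were 12 and 12, 6 and 7, and 9 and 8, against 68.0% and 71.2%. Within 1 kb of an end, pSmad1/5 peaks lay at 3 (molar) and 5 (limb) of the 13 other Fgf genes, at 3 and 5 of the 7 receptor genes, and at 4 and 4 of the 13 feedback genes, against 20.7% and 15.5% of all genes. For Smad4 the near-end counts were 1 and 1, 3 and 3, and 1 and 2, against 7.76% and 21.8%.

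Fgfr1, the Fgf receptor gene of mesenchyme, had peaks of all 4 lists within 1 kb of an end, at 824 bp (molar) and 235 bp (limb) for pSmad1/5 and at 112 and 979 bp for Smad4. Peaks of pSmad1/5 overlapped between the tissues 3480 bp from an end of Fgfr1, with a molar score of 3.70. Fgf11, whose product stays inside the cell, had overlapping molar and limb pSmad1/5 peaks 1034 bp from an end, and limb sites of both antibodies at 853 and 2029 bp. Fgfr3, a receptor of cartilage, had a limb site of both antibodies 27362 bp away. At opposite ends of Fgfr3 lay near-end peaks of limb pSmad1/5 at 30 bp (score 4.17) and of molar Smad4 at 893 bp (score 4.45). Fgfr4 and Fgf5 had near-end peaks of the same 2 lists, limb pSmad1/5 at 469 and 213 bp and molar Smad4 at 782 and 697 bp. Fgf16 and Fgf22 had them for pSmad1/5, at 756 and 843 bp in molar and at 120 and 850 bp in limb. Kl and Fgfrl1, a co-receptor and a receptor-like gene, had pSmad1/5 peaks at 413 and 33 bp in molar and at 87 and 390 bp in limb, and limb Smad4 peaks at 278 and 180 bp. Of the feedback genes, Spry2, an inhibitor of receptor signalling, had pSmad1/5 peaks at 715 bp (molar) and 454 bp (limb) and a limb Smad4 peak at 524 bp. Il17rd, another inhibitor, had a molar site of both antibodies 932 bp from an end, with a pSmad1/5 score of 2.10. A limb pSmad1/5 peak lay 678 bp from the other end of Il17rd. Sites of both tissues thus lay near 1 of 13 other Fgf genes, 1 of 7 receptor genes and 0 of 13 feedback genes for pSmad1/5, against 4.82% of all genes.

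**Figure D5:**
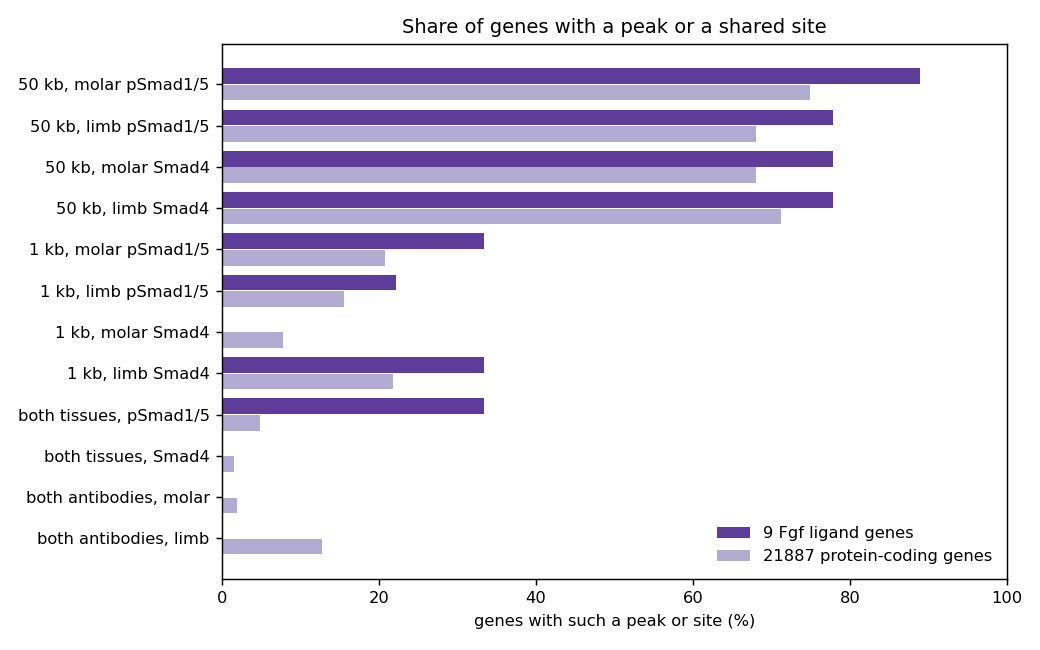
Share of genes in percent (x axis) with a peak within 50 kb, a peak within 1 kb of an end, or a shared site within 50 kb, for the 9 Fgf ligand genes (dark bars) and all 21887 protein-coding genes (light bars), per list or pair of lists. The dark bar is missing where none of the 9 genes was counted. The widest gap is at pSmad1/5 sites of both tissues, with 33.3% (3 genes) against 4.82%. Of these, Fgf9 and Fgf17 rest on molar peaks scoring under 3, and with a score of at least 3 only Fgf8 is left. With a score of at least 4 none is left.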

How the data were processed

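ChIP-seq peaks of pSmad1/5 and Smad4 in molar tooth germ and limb were analysed, 1 library each. Per the labels, tissue was fixed in 1% formaldehyde for 15 min and peaks were called by the authors with BCP in its transcription factor mode. The submitters' processing notes name bcl2fastq, Bowtie2, SAMtools, bedtools and deepTools without versions, and the build mm10. Whether inputs or duplicate removal entered the calls is not stated there. The deposited enrichment score and the deposited p-value are the authors' values per peak. They served to describe and filter peaks, and no test was run because each group is 1 library. Read depth is unknown.

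Genes came from RefSeq on GRCm38.p6, which shares mm10 coordinates on these chromosomes. The table gives no exons or strand, and the strand of 6 of the 9 genes came from the RefSeq promoter table. Upper and lower end mean the higher and lower coordinate. Sites were shared when peaks overlapped by at least 1 bp. Chromosome density used the highest coordinate of any gene or peak as length. Counting was tested on simulated data. The members and lists were chosen with earlier results of these data known. All 9 genes are named; genes of the 3 pathway lists are named where they had a shared site or a peak within 1 kb of an end in 2 or more lists. Alternatives were windows of 10 and 100 kb, near-end limits of 2 kb, minimum scores of 3 and 4, equal numbers of peaks per chromosome, any base of the peak, other overlap rules and start sites alone. Scripts ran in Python 3.11.15 with pandas 2.3.3 and numpy 2.4.6, scipy 1.17.1 for intervals and matplotlib 3.10.9 for plots.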

Additional observations from a re-analysis of the deposited data

Results flagged for a closer look

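At 4 genes the difference in peak number between molar and limb went one way for pSmad1/5 and the other way for Smad4. The share of all protein-coding genes with such opposite differences is not given here, so this count has no background. Molar minus limb was 1 for pSmad1/5 and -2 for Smad4 at Fgf3, a gap of 3 peaks. At Fgf4, which shares most of these peaks, it was 2 and -1, a gap of 3. At Fgf7 it was 1 and -2, a gap of 3, and at Fgf8 it was 1 and -2, a gap of 3. The difference was not tested, since each list is 1 library. On the chromosomes of Fgf7 and Fgf8 the molar Smad4 list starts at a score of 4 and the limb list at 3. On chromosome 7, which holds Fgf3 and Fgf4, both start at 3. With a score of at least 4, Fgf8 had 2 molar and 2 limb Smad4 peaks.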

How the results depend on the processing

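The counts of genes with a peak within 50 kb or 1 kb kept within 1.5 times of the reported value when any base of the peak replaced the summit, and also with near-end limits of 2 kb. With windows of 100 kb the single change beyond 1.5 times was a molar site of both antibodies at 1 gene, Fgf17. Windows of 10 kb left 2 genes for molar Smad4 and 1 for pSmad1/5 sites of both tissues. A smaller window cannot raise the count of any gene. For the alternative windows, near-end limits, equal numbers and overlap rules, the share of all protein-coding genes is not given here. Those counts therefore have no background to be read against. A score of at least 4 left 3, 4, 4 and 3 genes within 50 kb for molar pSmad1/5, limb pSmad1/5, molar Smad4 and limb Smad4, 0 within 1 kb in each list, and 0 sites of both tissues. A score of at least 3, chosen after seeing the data, left 5 genes for molar pSmad1/5 and 1 site of both tissues. Equal numbers of peaks per chromosome left 1 gene within 1 kb for limb pSmad1/5, 1 for limb Smad4 and 1 site of both tissues. An overlap of 50% left 1 such site, at Fgf8, through a limb peak of 7 bp. Summits within 250 bp gave sites of both antibodies at 1 gene in molar and 3 in limb, of which Fgf3 and Fgf4 share the same pair of peaks. The cause of these changes was not tested. Of 36 counts of peaks per gene and list, a score of at least 4 lowered 27, windows of 10 kb lowered 27 and windows of 100 kb raised 25. Start sites alone, run for the 6 genes with a strand, lowered 7 of 24. No paired analysis was possible because each group is 1 library. Unknown depth limits every comparison of peak numbers.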

Other observations

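Some peaks lay close to the 50 kb limit that assigns them. Just inside were a limb Smad4 peak at Fgf8 (49923 bp, score 3.94), a limb pSmad1/5 peak at Fgf8 (49730 bp, score 3.82) and the molar Smad4 peak at Fgf10 (49116 bp, score 3.19). Just outside were a molar pSmad1/5 peak at Fgf9 at 50255 bp, whose score of 4.34 is higher than that of any molar pSmad1/5 peak inside the Fgf9 window, a molar Smad4 peak at Fgf17 at 52880 bp (score 3.76), and a limb pSmad1/5 peak at Fgf18 at 53207 bp (score 5.55).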
